A study of Mus musculus with 6 samples.

Results

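The genes described here are the 5 NF-κB subunits (*Nfkb1*, *Nfkb2*, *Rel*, *Rela* and *Relb*) and 5 inhibitors of the pathway (*Nfkbia*, *Nfkbib*, *Nfkbie*, *Nfkbiz* and *Tnfaip3*), in group 2 innate lymphoid cells (ILC2s) of the mouse lung cultured with or without melatonin. They were taken by symbol from a list of NF-κB genes; the rule uses no measured value, although the list was made with earlier results of these data known. All 10 were among the 16381 genes listed, and all 10 passed the filter on low values that left 14419 genes to test. Lungs came from BALB/cJ mice of 6 to 8 weeks, described as female in the study's methods (4 of the 6 libraries hold Y-linked transcripts, as given below with their values), that had received IL-33 at 0.5 µg per day for 3 days, so the cells of both groups were activated ILC2s. Cells sorted as CD45+, lineage-negative, ST2+ and CD127+ were cultured for 24 h in melatonin at 250 µM or in the solvent alone (DMSO, called vehicle), and bulk RNA of 3 samples per group was sequenced. Nothing in the sources used here says whether the samples of a group came from separate mice. P-values may therefore measure only the spread between these samples, which may be technical. Melatonin replicates 2 and 3 differed in sex-linked transcripts from melatonin replicate 1 and from the vehicle samples, as given below. They were therefore not parts of the same pool of cells as those samples. The labels give the melatonin libraries consecutive numbers, and the vehicle libraries a separate block of consecutive numbers with an added suffix. Any difference between library batches and the effect of melatonin therefore cannot be told apart.

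NF-κB proteins are transcription factors that bind DNA as pairs of subunits. In resting cells they are held in the cytoplasm by IκB proteins, and a kinase complex, IKK, marks the IκB for destruction when a receptor such as the IL-33 receptor or a TNF receptor is engaged. In ILC2s this is a main route from IL-33 to cytokine transcription. *Nfkb1* and *Nfkb2* encode the precursors p105 and p100, which are cut to the DNA-binding subunits p50 and p52 and which, uncut, themselves act like IκB proteins. *Rela*, *Rel* and *Relb* encode the subunits that carry an activation domain. Several of the inhibitors are themselves NF-κB targets and form a negative feedback loop.

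The promoters of the members were searched for the κB consensus, the site that NF-κB dimers bind, because a κB site in a member's own promoter is the textbook basis of this feedback. Windows of 300 bases, from 250 before to 50 after an annotated start, were taken from RefSeq (GRCm38.p6) for 7 of the 10 members. *Nfkb1*, *Nfkbiz* and *Relb* had no entry in the set of windows used here, which does not mean that RefSeq lacks these genes. At least 1 match on either strand was present in a window of 5 of these 7 members, namely *Nfkb2*, *Rel*, *Nfkbia*, *Nfkbie* and *Tnfaip3*, which can have up to 3 windows each. Counted by window, 7 of the members' 10 windows held a match, against 8.46% of all 32851 windows, and 2 of the *Nfkb2* windows overlap and share a match. *Rela* and *Nfkbib* had no match in their window. Overlapping matches were counted as 1 site. The antioxidant response element, searched on both strands as TGACNNNGC, was present in the window of *Nfkbia* alone, starting at position -13 without overlapping a κB match, and in 12.4% of all windows. Such matches describe the letters of the window and were not tested for binding. The bases before the start are shown for the members with a window that were called changed (*Rel*, *Nfkbia* and *Nfkbib*) and for *Nfkb2*, whose windows all held a match, each read 5′ to 3′ on the strand of the gene with κB matches in capitals.
*Rel*, chr11:23770970-23771219, minus strand, 1 match starting at position -92 from the start site:
Rel: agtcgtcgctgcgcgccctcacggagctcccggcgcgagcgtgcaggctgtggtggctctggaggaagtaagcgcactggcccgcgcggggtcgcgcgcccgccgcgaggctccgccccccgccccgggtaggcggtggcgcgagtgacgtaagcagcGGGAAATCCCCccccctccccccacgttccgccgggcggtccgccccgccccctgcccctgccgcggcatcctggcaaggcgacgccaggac
*Nfkbia*, chr12:55492648-55492897, minus strand, 1 match starting at position -29:
Nfkbia: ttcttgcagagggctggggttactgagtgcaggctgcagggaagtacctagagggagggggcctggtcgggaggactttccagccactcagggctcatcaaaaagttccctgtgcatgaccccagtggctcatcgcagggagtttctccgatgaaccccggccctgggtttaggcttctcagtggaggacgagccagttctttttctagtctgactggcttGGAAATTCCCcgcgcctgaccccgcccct
*Nfkb2*, the first of 3 windows, chr19:46304487-46304736, plus strand, matches starting at positions -39 and -11:
Nfkb2: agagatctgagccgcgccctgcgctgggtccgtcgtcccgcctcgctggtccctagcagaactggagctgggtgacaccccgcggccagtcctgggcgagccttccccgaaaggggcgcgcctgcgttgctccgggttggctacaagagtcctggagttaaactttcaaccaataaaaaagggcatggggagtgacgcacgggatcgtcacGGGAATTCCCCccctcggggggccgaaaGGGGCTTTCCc
*Nfkbib*, chr7:28766645-28766894, minus strand, no match:
Nfkbib: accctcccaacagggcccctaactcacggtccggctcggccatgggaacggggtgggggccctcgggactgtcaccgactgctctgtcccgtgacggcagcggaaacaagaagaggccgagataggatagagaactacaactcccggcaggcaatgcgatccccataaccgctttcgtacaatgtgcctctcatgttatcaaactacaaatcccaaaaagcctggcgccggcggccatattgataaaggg

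With melatonin, *Nfkb1* fell to 0.415 of its vehicle level, *Nfkbib* fell by a smaller amount, *Rel* and *Nfkbiz* rose, and *Nfkbia* rose slightly. By limma on log2 normalized counts with Benjamini-Hochberg adjustment over all 14419 genes, 3 of the 10 members were higher, 2 were lower and 5 did not pass the adjusted threshold of 0.05. By the same rule 24.5% of all tested genes were higher and 24.7% lower, so the members' counts are close to the background. All 3 melatonin samples lay above all 3 vehicle samples for 4 members, against 30.0% of tested genes, and below them for 2 members, against 30.3%. The members' median log2 fold change was 0.31, and that of all tested genes was -0.0046. The members' median lay between *Nfkbie* (0.24) and *Nfkb2* (0.39). Without melatonin replicate 1 it lay lower, between *Nfkb2* (0.10) and *Nfkbia* (0.20).

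**Figure D1:**
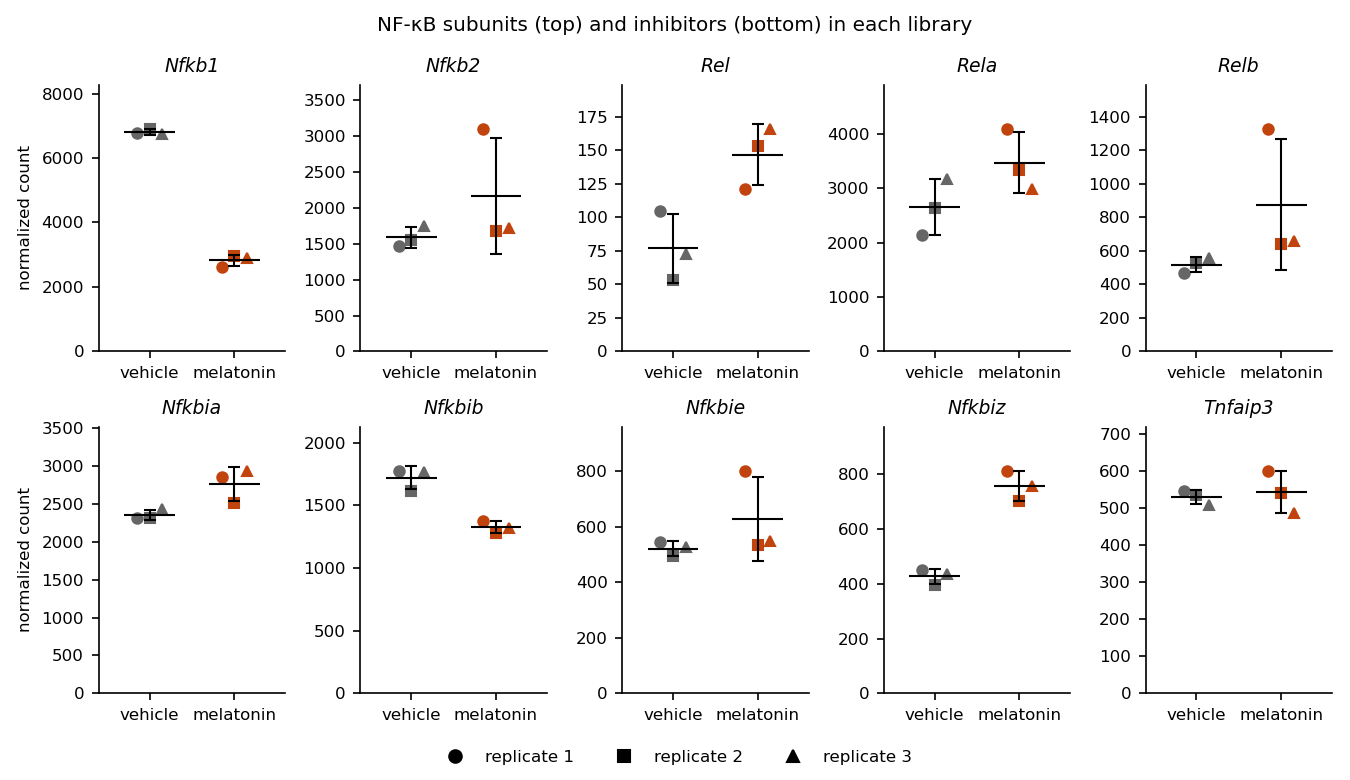
Normalized counts (estimated reads divided by the size factor of the sample, linear axis from 0) of the 10 members in 3 vehicle and 3 melatonin samples, with the group mean and SD as bars and a symbol for each replicate number. *Nfkb1* lies between 6744 and 6899.6 in vehicle and between 2621 and 2959 in melatonin, while melatonin replicate 1 stands above the other samples for *Nfkb2*, *Rela*, *Relb* and *Nfkbie*.

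Among the subunits, *Nfkb1* (chromosome 3 of GRCm39, 135290264 to 135397742, minus strand) was measured at 6759.6, 6899.6 and 6744 normalized counts in vehicle replicates 1, 2 and 3. It was measured at 2621, 2959 and 2894 in the melatonin replicates. The groups were far apart and each was tight. The log2 fold change was -1.27 with a standard error of 0.08 and a 95% interval from -1.44 to -1.10 (limma, adjusted p = 1.85e-05). It stayed lower and past the threshold under all 20 alternatives, between -1.40 and -1.15. *Nfkb1* had the largest fold change in size of the 10 members.

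*Rela* (chromosome 19, 5687493 to 5698161, plus strand) encodes p65, the usual partner of p50. Its normalized counts were 2149, 2634 and 3180.1 in vehicle and 4096, 3344 and 2988 in melatonin. The groups overlapped, since melatonin replicate 3 was below vehicle replicate 3. The log2 fold change of 0.39 (95% interval from 0.04 to 0.75) did not pass the adjusted threshold (limma, adjusted p = 0.0625), and it passed under 7 of the 20 alternatives, among them the fits without vehicle replicate 3 and without melatonin replicate 3.

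*Rel* (chromosome 11, 23686847 to 23721264, minus strand) encodes c-Rel, a subunit best known from activated lymphocytes. Its normalized counts were 105, 53.4 and 72.4 in vehicle and 121, 153 and 166 in melatonin. All melatonin samples were higher, although vehicle replicate 1 came close to melatonin replicate 1. *Rel* had the lowest level of the members and between 57 and 165 estimated reads per sample. Its fold change was 0.97 on the log2 scale with a standard error of 0.26, the largest of the members and close to that of *Relb* at 0.25 (95% interval from 0.38 to 1.55, limma, adjusted p = 0.0136). It passed under 19 of the 20 alternatives. With melatonin replicate 1 as the only melatonin sample, and its spread taken from the vehicle samples, it did not (0.71, adjusted p = 0.177).

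*Nfkb2* and *Relb* encode the p100/p52 and RelB subunits of the non-canonical pathway, which are commonly paired. *Nfkb2* (chromosome 19, 46292759 to 46303812, plus strand) had 1465, 1552 and 1747 normalized counts in vehicle and 3100.0, 1674 and 1717 in melatonin. *Relb* (chromosome 7, 19339017 to 19363425, minus strand) had 467, 528 and 559 in vehicle and 1327, 642 and 657 in melatonin. In both genes melatonin replicate 1 stood above all other samples, while melatonin replicates 2 and 3 lay inside the vehicle range for *Nfkb2* and just above it for *Relb*. The log2 fold change of *Nfkb2* was 0.39 (95% interval from -0.09 to 0.87, limma, adjusted p = 0.158). That of *Relb* was 0.67 (95% interval from 0.11 to 1.24, adjusted p = 0.0507), which just missed the threshold. Without melatonin replicate 1, the log2 fold change of *Relb* was 0.33 and passed the threshold in that fit (adjusted p = 0.02996), and that of *Nfkb2* was 0.10 (adjusted p = 0.381). *Relb* also passed without melatonin replicate 2 (0.85) and without melatonin replicate 3 (0.84).

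**Figure D2:**
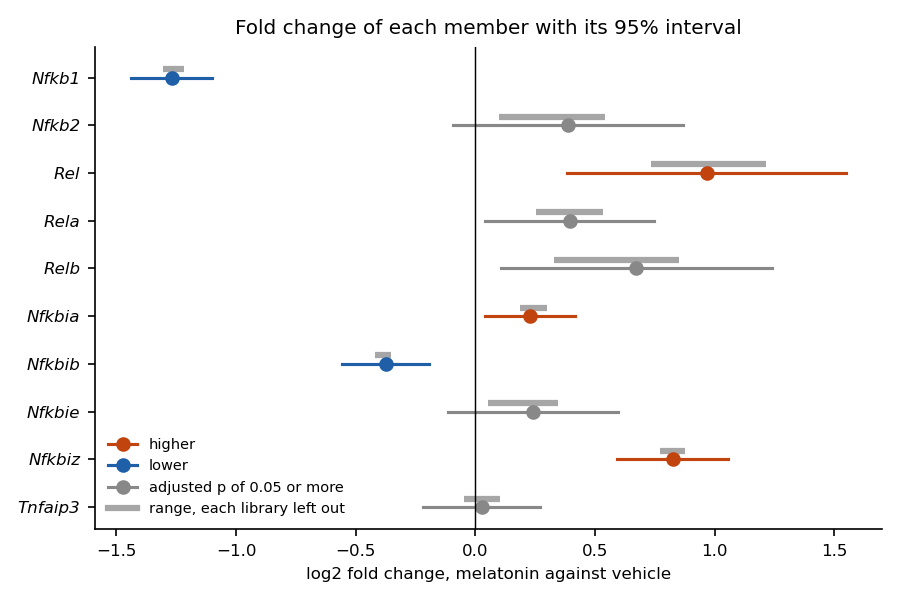
Log2 fold change of each member, melatonin against vehicle, with its 95% limma interval (coloured line and point) and the range of the estimate when each of the 6 samples was left out in turn (thick grey bar). *Nfkb1* and *Nfkbib* lie left of 0 with their intervals, and *Rel*, *Nfkbiz* and *Nfkbia* lie right of it; *Nfkb2*, *Nfkbie* and *Tnfaip3* have intervals that include 0.

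*Nfkbia*, *Nfkbib* and *Nfkbie* encode the classical inhibitors IκBα, IκBβ and IκBε. *Nfkbia* (chromosome 12, 55535332 to 55539432, minus strand), the member with the fastest known feedback, had 2311, 2317 and 2425 normalized counts in vehicle and 2851, 2504 and 2930.3 in melatonin. The groups did not overlap, but melatonin replicate 2 was close to vehicle replicate 3. Its log2 fold change of 0.23 (95% interval from 0.04 to 0.42, limma, adjusted p = 0.0469) was near the threshold. It kept its direction under all 20 alternatives, passed under 10 of them, and of the 6 fits that left out a sample it passed in 1, the fit without melatonin replicate 2 (0.30).

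*Nfkbib* (chromosome 7, 28457486 to 28466937, minus strand) went the other way. It had 1775, 1616 and 1771 normalized counts in vehicle and 1377, 1283 and 1319 in melatonin. The groups did not overlap, and the lowest vehicle sample was well above the highest melatonin sample. Its log2 fold change was -0.37 (95% interval from -0.56 to -0.19, limma, adjusted p = 0.00493), and it passed under all 20 alternatives.

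*Nfkbie* (chromosome 17, 45866585 to 45874661, plus strand) had 545, 495 and 526 normalized counts in vehicle and 801, 533 and 548 in melatonin. Only melatonin replicate 1 stood clearly above the vehicle range. The log2 fold change was 0.24 (95% interval from -0.11 to 0.60, limma, adjusted p = 0.228), and it was 0.05 without that sample.

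*Nfkbiz* (chromosome 16, 55631738 to 55659262, minus strand) encodes IκBζ, a nuclear IκB-like protein that binds p50 on DNA and is known for switching on a second wave of target genes as well as for restraining others. Its normalized counts were 449.9, 396 and 435 in vehicle and 812, 704 and 757 in melatonin. The groups were well separated and each was tight. It rose by 0.82 on the log2 scale (95% interval from 0.59 to 1.06, limma, adjusted p = 0.000372) and passed under all 20 alternatives, between 0.76 and 0.93.

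*Tnfaip3* (chromosome 10, 18874201 to 18891405, minus strand) encodes A20, a ubiquitin-editing enzyme that shuts off signalling upstream of IKK. It had 547, 537 and 509.9 normalized counts in vehicle and 600.4, 542 and 487 in melatonin. The melatonin samples spanned the whole vehicle range. The log2 fold change was 0.03, with a 95% interval from -0.22 to 0.27 (limma, adjusted p = 0.853), which leaves room for a change of about that size in either direction.

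Levels of different genes were compared as normalized counts per kb of annotated exon. In vehicle, *Nfkbia* was the highest at 1214 ± 33.0 per kb (SD, n = 3), followed by *Rela* at 811 ± 158 and *Nfkbib* at 729 ± 38.4, whose ranges overlapped, and by *Nfkb1* at 529 ± 6.66. *Nfkb2* at 201 ± 18.3, *Nfkbie* at 125 ± 6.06, *Relb* at 102 ± 9.27, *Nfkbiz* at 76.1 ± 4.93, *Tnfaip3* at 54.7 ± 1.97 and *Rel* at 9.89 ± 3.33 followed without overlap between neighbours. In melatonin the order began again with *Nfkbia* at 1426 ± 117, *Rela* at 1062 ± 173 and *Nfkbib* at 562 ± 20.2. *Nfkb2*, *Nfkb1*, *Relb*, *Nfkbie* and *Nfkbiz* then formed a run in which each overlapped the next, from 274 ± 103 to 135 ± 9.69 per kb, above *Tnfaip3* at 55.9 ± 5.86 and *Rel* at 18.9 ± 2.95. By this length, the genes at the first 3 and the last 3 positions were the same in both groups, and the changed order between them was within the overlap of the melatonin samples. The order also depended on the length used for *Nfkb1*, whose annotated exons together span 12848 bases and whose longest transcript has 4802. By the longest transcript, *Nfkb1* was at 1416 ± 17.8 per kb in vehicle, second to *Nfkbia*, and at 588 ± 37.3 in melatonin, next after *Nfkbia*, *Rela* and *Nfkbib*, without overlapping a neighbour in either group.

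As a share of the 5 subunits per kb of exon, *Nfkb1* made up 32.3% ± 3.58 (SD, n = 3) in vehicle and 13.0% ± 2.92 in melatonin. *Rela* made up 48.7% ± 4.17 in vehicle and 61.0% ± 2.30 in melatonin. The share of *Nfkb2* was 12.2% ± 0.358 and 15.4% ± 2.77, that of *Relb* 6.17% ± 0.165 and 9.57% ± 2.38, and that of *Rel* 0.613% ± 0.265 and 1.13% ± 0.352. The share of *Nfkb1* was lower in every melatonin sample (9.61% to 14.96%) than in any vehicle sample (28.6% to 35.7%). With the longest transcript as length, the share of *Nfkb1* was 52.5% in vehicle and 25.5% in melatonin, so its size depends on the length while its direction does not.

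**Figure D3:**
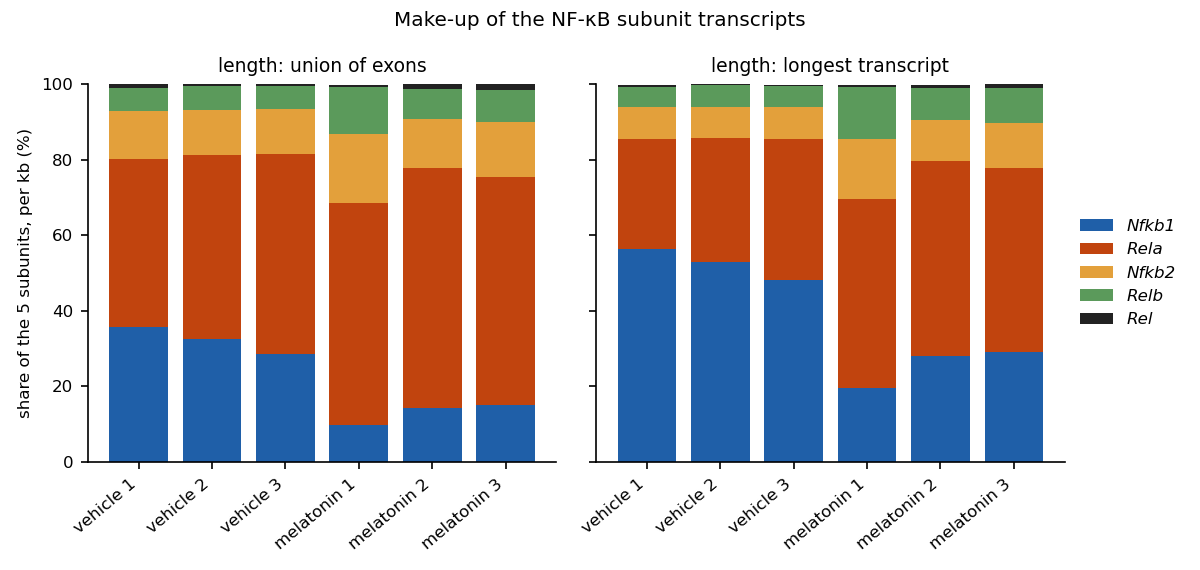
Share of each of the 5 subunits in the sum of their normalized counts per kb (percent, stacked to 100) in each of the 6 samples, with the union of annotated exons (left) or the longest transcript (right) as length. The *Nfkb1* share is smaller in all 3 melatonin samples under both lengths, with means of 32.3% and 13.0% on the left.

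Ratios within a sample do not depend on how samples were scaled, and 5 were compared by an exact two-sided permutation test, which with 3 samples per group cannot give a p below 0.1. The ratio of *Nfkb1* to *Rela* normalized counts was 2.59 in vehicle and 0.819 in melatonin (geometric means), a log2 difference of -1.66 with no overlap (exact permutation p = 0.1, adjusted over the 5 ratios 0.25). The ratio of *Nfkb2* to *Relb* was 3.06 in vehicle and 2.51 in melatonin, a log2 difference of -0.29 with no overlap (exact permutation p = 0.1, adjusted 0.25). It varied little between samples, with an SD of 0.05 on the log2 scale in vehicle and 0.09 in melatonin, although both genes were high in melatonin replicate 1. The ratios of *Rel*, *Nfkbia* and *Tnfaip3* to *Rela* overlapped between the groups, with log2 differences of 0.57, -0.17 and -0.37 (exact permutation p = 0.3, 0.5 and 0.3). Without vehicle replicate 1 they were 0.96, -0.035 and -0.20. The ratio of *Rel* to *Rela* also moved to 0.34 without vehicle replicate 2 and 0.37 without melatonin replicate 3. The ratio of *Nfkbia* to *Rela* moved to -0.066 without melatonin replicate 1, -0.28 without vehicle replicate 3 and -0.31 without melatonin replicate 3. None of the 5 can pass the threshold in this design.

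Melatonin replicate 1 differed from the other melatonin samples in several members. Its log2 level minus the mean of replicates 2 and 3 was 1.03 for *Relb*, 0.87 for *Nfkb2*, 0.57 for *Nfkbie* and 0.37 for *Rela*, and -0.39 for *Rel*. Gaps as large as that of *Relb* were found in 8.35% of tested genes and as large as that of *Nfkb2* in 11.1%, and the median gap in size over all tested genes was 0.24. This sample was the highest of all 6 for 6 members and for 25.7% of tested genes. It also differed in sex-linked transcripts. In melatonin replicates 2 and 3, *Xist* had 579 and 1091 normalized counts, against 13.6 or less in the other samples. The Y-linked *Ddx3y*, *Eif2s3y*, *Kdm5d* and *Uty* were at 0 in melatonin replicates 2 and 3 and between 298 and 1363 in the other samples, although the study's methods describe female mice. These transcripts therefore partly follow the treatment groups. None of the 10 members lies on a sex chromosome, and the part of this difference in the results was not tested beyond the values with and without melatonin replicate 1. Melatonin replicate 1, which like the vehicle samples holds Y-linked transcripts, differed from the vehicle mean by -1.38 for *Nfkb1*, -0.32 for *Nfkbib*, 0.93 for *Nfkbiz*, 0.28 for *Nfkbia* and 0.71 for *Rel* on the log2 scale. These are values of a single sample.

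**Figure D4:**
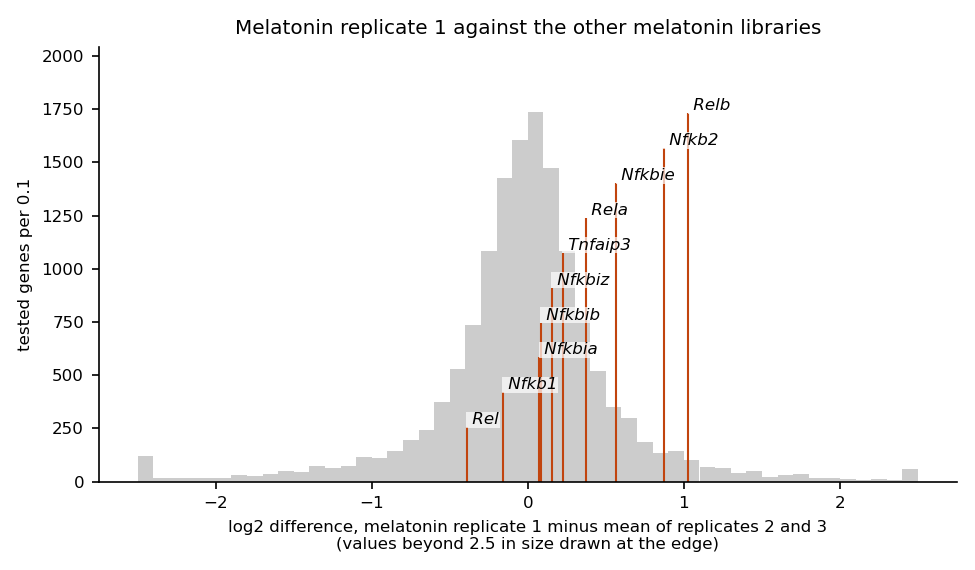
Histogram over the 14419 tested genes of the log2 level in melatonin replicate 1 minus the mean of melatonin replicates 2 and 3 (genes per bin of 0.1 on the vertical axis), with the 10 members as labelled lines whose height has no meaning. *Relb* (1.03) and *Nfkb2* (0.87) lie in the right tail, and *Nfkb1* and *Nfkbia* lie near 0. Counting both tails, 8.35% and 11.1% of genes have gaps at least as large in size as those of *Relb* and *Nfkb2*.

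The other genes of the pathway were read from 4 lists. Of 12 genes for the IKK complex and its upstream kinases, 6 were higher, 1 was lower and 5 did not pass, with a median log2 fold change of 0.27 that was 0.16 without vehicle replicate 1. The shares were 50% higher and 8.33% lower, beside 24.5% and 24.7% of all tested genes. The 3 core subunits of IKK were all higher. *Chuk*, which encodes IKKα, rose by 0.85 (limma, adjusted p = 0.000417), from between 1400.1 and 1711 normalized counts to between 2457 and 3042. *Ikbkg*, which encodes the scaffold NEMO and lies on chromosome X, rose by 0.61 (adjusted p = 0.00177). *Ikbkb*, which encodes IKKβ, rose by 0.28 (adjusted p = 0.0401), and passed in 1 of the 6 fits that left out a sample. The largest rise was that of *Map3k7*, which encodes the IKK-activating kinase TAK1, at 1.08 (adjusted p = 0.000795), and *Ikbke*, an IKK-related kinase, rose by 0.69 (adjusted p = 0.000970). *Map3k14*, which encodes NIK, the kinase of the non-canonical pathway, was the one that fell, by 0.70 (adjusted p = 0.00377). In melatonin replicate 1 alone, *Ikbkg* was at 0.77 and *Map3k14* at -0.96 from the vehicle mean. Without melatonin replicate 3, 2 genes of this list were lower.

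Of 19 adaptors and ubiquitin ligases upstream of IKK, 4 were higher, 3 were lower and 12 did not pass, with a median of 0.06 that was -0.0012 without melatonin replicate 1 and 0.26 with melatonin replicate 1 as the only melatonin sample, where 8 genes were higher. The kinase *Ripk1* of the TNF receptor complex rose by 0.78 (limma, adjusted p = 0.000388), *Birc2*, which encodes the ubiquitin ligase cIAP1, by 0.51 (adjusted p = 0.00953) and *Tank* by 0.38 (adjusted p = 0.00757). *Traf1*, a signalling adaptor and an NF-κB target, fell from between 3895 and 3974 normalized counts to between 1657 and 1945, a log2 fold change of -1.14 (adjusted p = 3.26e-05). *Traf3*, which holds NIK in check, fell by 0.40 (adjusted p = 0.00581). *Myd88*, the adaptor of the IL-33 receptor, fell by 0.33 (adjusted p = 0.0127). The shares higher and lower, 21.1% and 15.8%, were below those of all tested genes.

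Of 19 other IκB-like proteins and brakes, 5 were higher, 7 were lower and 7 did not pass, with a median of 0.19 that was 0.086 without melatonin replicate 1. The share higher, 26.3%, was close to that of all tested genes, and the share lower was 36.8%. *Irak3*, which encodes an IRAK family member that restrains MyD88 signalling, had the largest rise, from between 523 and 602 normalized counts to between 1333 and 1904, 1.44 on the log2 scale (limma, adjusted p = 0.000117). The ubiquitin ligase *Itch* rose by 0.74 (adjusted p = 0.000425) and *Tollip* by 0.49 (adjusted p = 0.00364). *Sigirr*, a receptor that dampens IL-1 family signalling, fell by 1.33 (adjusted p = 1.77e-05), from between 3327 and 3478 normalized counts to between 1294 and 1452. *Pdlim2*, which promotes the degradation of nuclear p65, fell by 0.80 (adjusted p = 0.00446). *Tnip3*, a partner of A20, fell by 1.86 (adjusted p = 0.0447) but had at most 22 estimated reads in a sample and passed in 1 of the 6 fits that left out a sample. The number of higher genes in this list was 3 without vehicle replicate 1, without vehicle replicate 2 or without melatonin replicate 2. The number of lower genes was 3 without vehicle replicate 2 or 3 and 4 without melatonin replicate 2 or 3. Over all tested genes these fits called as few as 2739 higher and 2711 lower, against 3529 and 3565.

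Of 34 known NF-κB target genes outside the pathway, 33 were tested, of which 3 were higher, 15 were lower and 15 did not pass, with a median of -0.53. *Tnfrsf9*, which encodes the costimulatory receptor 4-1BB, rose by 1.79 (limma, adjusted p = 0.000109), *Bcl2l1*, which encodes the survival protein Bcl-xL, by 0.68 (adjusted p = 0.00151), and the cyclin gene *Ccnd2* by 0.37 (adjusted p = 0.0159). The chemokine genes *Ccl4* and *Ccl3* had between 93.4 and 161 normalized counts in vehicle and at most 5.03 in melatonin, with fitted log2 fold changes of -5.81 and -5.57 (adjusted p = 0.000120 and 0.000221) that depend on the pseudocount at such low levels. *Vcam1*, an adhesion molecule gene, fell by 2.90 (adjusted p = 0.00728), from 22.0 normalized counts or fewer. *Ccnd1* was not tested, because it stayed under 10 normalized counts in every sample. The shares of higher and lower genes, 9.09% and 45.5%, stood beside 24.5% and 24.7% of all tested genes, without a test of the list. Among the 21 genes of the list that averaged 100 or more, 9 were lower and 3 higher, with a median of -0.30, beside 26.7% lower and 31.4% higher of all genes at that level.

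**Figure D5:**
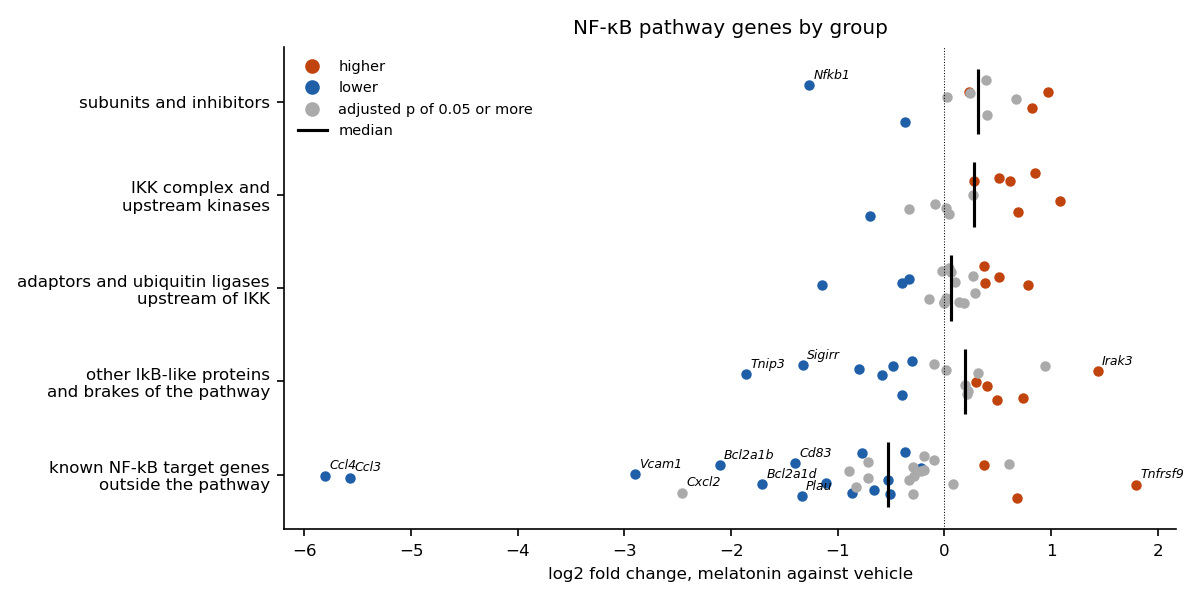
Log2 fold change, melatonin against vehicle, of the 10 members and of the tested genes of 4 pathway lists, 1 point per gene, coloured by whether the adjusted p was under 0.05, with the median of each list as a black line (vertical scatter within a list has no meaning). The target genes lie mostly left of 0, with a median of -0.53 and *Ccl3* and *Ccl4* at the far left, while the median of the IKK list is 0.27.

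The genes whose 6 log2 values, centred on the vehicle mean, lay nearest to those of each called member were looked up among the 9989 other genes that averaged 100 normalized counts or more. *Mri1* was nearest to *Nfkb1*, with a root mean square difference of 0.04 on the log2 scale, and fell by 1.29. *Sufu* was nearest to *Nfkbib* (0.01) and *Fuz* to *Nfkbiz* (0.03). *Nemp2* was nearest to *Nfkbia* (0.02). *Atp7a*, on chromosome X, was nearest to *Rel*, at 0.17 the largest difference of the 5.

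Because the RNA is from bulk samples, fewer cells of a type and less RNA per cell cannot be told apart. The lineage gate of the sort selected against surface markers of T, B, NK and myeloid cells and of mast cells and basophils. The 12 ILC2 markers were all listed, with a summed level between 168069 and 180504 normalized counts in vehicle and between 126557 and 133246 in melatonin, and 2 of them were higher and 7 lower. The cytokine gene *Il5* made up the largest part of this sum, at 78846 to 85795 in vehicle and 40304 to 57764 in melatonin. *Il1rl1*, which encodes the IL-33 receptor ST2, was at 7698 to 8735 and 10498 to 16787, and *Rora* at 4000 to 4546 and 5760 to 7796. Markers other than cytokines were also lower in melatonin. *Id2* was at 21628 to 23162 and 11876 to 13230, and *Klrg1* at 6207 to 7361 and 1491 to 1536. *Il7r* was at 1811 to 2102 and 700 to 1655, and *Thy1* at 356 to 421 and 34.6 to 65.3. Marker genes of other cells differed between the groups as well. All 5 NK cell markers were listed, at a sum of 5944 to 7224 in vehicle and 75.6 to 210.1 in melatonin, of which *Gzma* was 5677 to 7021 and 56.0 to 189.99. *Klrb1c* was at 9.37 or less in vehicle and 0 in every melatonin sample. *Ncr1*, whose protein CD335 the sort selected against, was at 101 to 114 in vehicle and 1.01 or less in melatonin. Of 8 T cell markers, 4 were listed, at 1209.7 to 1349 in vehicle and 458 to 870.3 in melatonin, and *Cd4*, *Cd5*, *Cd8a* and *Cd8b1* were not listed. Of 10 myeloid markers, 9 were listed, at 1462 to 1721 in vehicle and 366 to 849 in melatonin. The B cell markers *Cd79a* and *Cd79b* summed to 289 to 322 in vehicle and 131 to 162 in melatonin. Of 5 mast cell and basophil markers, 2 were listed, at 36.2 or less. The 6 epithelial markers summed to 933 to 2220.1 in vehicle and 1058 to 1261 in melatonin, with 1 called higher and 3 lower. Within this sum *Epcam* was at 623 to 745 in vehicle and 1016 to 1229.8 in melatonin, *Sftpc* at 122 to 389 and 3.02 to 6.54, and *Scgb1a1* at 21.5 to 1045, highest in vehicle replicate 3, and 1.01 or less. Of the 5 endothelial and fibroblast markers only *Pecam1* was listed, at 1001 to 1066 in vehicle and 310.0 to 416 in melatonin. Their part in the results for the NF-κB genes was not tested. The library kit does not mark strand, and *Nfkb1*, *Nfkb2*, *Rela*, *Nfkbia*, *Nfkbib* and *Tnfaip3* overlap exons of a gene on the opposite strand, so reads there cannot be told apart. Of the neighbours of *Nfkbib*, *Sirt2* was listed and also fell, by 0.23 (limma, adjusted p = 0.0422), and of those of *Nfkb2*, *Psd* was listed and had at most 19.8 normalized counts in a sample. The other overlapping genes on the opposite strand had no listed value.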

How the data were processed

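Reads from the 3 melatonin and 3 vehicle samples were aligned by the authors with STAR to mm39 and assigned to Gencode M33 genes in Partek Flow, whose algorithm can divide a read among genes. The authors left out low genes and divided the estimated counts by a size factor per sample (median ratios, as in DESeq2). The deposited values are therefore a normalized signal and were not given to a count model. From the spacing of the values, samples held between 17056267 and 20511711 estimated counts. These limit only counting error, and replicates differed by more than that (chi-square per degree of freedom of at least 6.03 within groups). Gencode M39 (GRCm39) gave names for 16334 of 16381 identifiers, positions and exon lengths.

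Genes that reached 10 in 1 or more samples were tested with limma 3.58.1 in R 4.3.3 (mean-variance trend, treatment as the only term) on log2(normalized count + 1), with Benjamini-Hochberg adjustment over 14419 genes and a threshold of 0.05. Fold changes on this scale understate changes of low genes. Tables and figures used pandas 2.3.3, numpy 2.4.6, scipy 1.17.1 and matplotlib 3.10.9. The fit was tested on simulated data, but the outcome is not given here and no result rests on it. The members and the gene lists were chosen with earlier results of these data known. Besides the members, the genes named are the 3 largest called rises and falls of each pathway list, list genes at or under 3 estimated counts in every sample of a group, and the gene nearest in pattern to each called member. Of the others, *Ikbkg*, *Ikbkb*, *Sirt2* and *Psd*, the sex-linked genes and the individual markers of cell types were named after their values were seen, for their place in the IKK complex, beside a member, on a sex chromosome or in a marker sum. The 20 alternatives changed the pseudocount (0.1 or 10) or the genes entered (all of them, or those averaging 100 or more), or used scaling to the same total, quantile and upper quartile scaling, no trend, sample weights, voom, curves of exon length or GC content removed, the replicate number as a block, melatonin replicate 1 alone, and each sample left out in turn. With melatonin replicate 1 alone, that sample is assumed to vary like the vehicle samples.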

Additional observations from a re-analysis of the deposited data

How the results depend on the processing

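The calls of *Nfkb1*, *Nfkbib* and *Nfkbiz* held under all 20 alternatives. *Nfkbia* stayed higher but lost its call with all genes listed (0.23), without the trend (0.23), with upper quartile scaling (0.18), with sample weights (0.19) and in 5 of the 6 fits that left out a sample, which together ranged from 0.18 to 0.30. It kept its call at larger values with the exon length curve removed (0.40) and with the GC curve removed (0.33). *Relb* passed with a pseudocount of 10 (0.66), scaling to the same total (0.71), sample weights (0.46), the GC curve removed (0.80) and melatonin replicate 1 alone (1.36), and ranged from 0.33 to 0.85 with single samples left out. *Rela* passed with scaling to the same total (0.43), quantile normalization (0.43), the exon length curve (0.44) or the GC curve removed (0.47) and melatonin replicate 1 alone (0.64), and ranged from 0.25 to 0.53 with single samples left out. With melatonin replicate 1 alone, *Nfkb2* (0.97) and *Nfkbie* (0.62) also passed, *Rel* (0.71) did not, and 6 members were higher, beside 23.5% of all tested genes; that sample's spread is taken from the vehicle samples (chi-square per degree of freedom between libraries of 6.03 to 13.3, against 12.7 to 34.7 among melatonin samples). The count of members higher was 5 with scaling to the same total and with the GC curve removed, beside 26.8% and 24.6% of all tested genes. *Tnfaip3*, called under no alternative and at 0.18 with melatonin replicate 1 alone, turned to -0.055 with quantile normalization, -0.023 with upper quartile scaling, -0.0033 with sample weights, -0.0013 with the GC curve removed and -0.085 with the exon length curve removed, and ranged from -0.048 to 0.10 with single samples left out. The median of the adaptor list turned to -0.0012 without melatonin replicate 1, where leaving out single samples gave up to 0.114, and to -0.011 with the exon length curve removed. The exon length curve also brought the median of the brakes list to 0.080. Higher genes of that list numbered 3 with upper quartile scaling, without the trend or with the exon length curve removed. Over all tested genes 21.9%, 20.8% and 23.6% were higher in these fits. Without the trend, 4 genes of the list were lower, beside 21.8% of all tested genes. The list's median was 0.12 with quantile normalization, with sample weights or with the GC curve removed. With genes averaging 100 or more, 9 target genes were lower in place of 15, as that setting enters only 21 of the 33 tested target genes. The lower genes it leaves out, such as *Ccl3*, *Ccl4* and *Vcam1*, average under 100. The cause of the other shifts was not tested. With the longest transcript as length, shares of the subunits were 52.5% in vehicle and 25.5% in melatonin for *Nfkb1*, 33.2% and 50.3% for *Rela*, and in vehicle 8.30% for *Nfkb2* and 5.62% for *Relb*. Deviations of same-numbered samples from their group means had r across genes of -0.11, 0.14 and -0.19. Those of differently numbered samples had r between -0.19 and 0.31. With 3 samples per group, these values cannot decide whether the numbers pair the samples. With the replicate block *Nfkbia* was at 0.23 (limma, adjusted p = 0.0659), while the other members kept their side of the threshold. *Rel* and *Tnip3* had few estimated reads, and whether depth limits their results was not tested.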
